A study of Mus musculus with 3 samples.

Results

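Integrin subunit genes and the genes of their first intracellular partners were examined in sorted ureteric duct cells of the mouse embryo. The members were chosen by symbol alone: 18 genes for alpha subunits, 8 for beta subunits, and 13 for focal adhesion proteins, namely Ilk, Parva, Parvb, Lims1, Lims2, Tln1, Tln2, Fermt1, Fermt2, Fermt3, Vcl, Pxn and Ptk2. Of these 39 genes, 38 had a probe set of their own among the 19938 genes with a signal. Ptk2, the gene of focal adhesion kinase, was not analysed here.

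The study comprised 3 arrays of a single group, each from 1 duct, numbered 1 to 3. The embryos were of the CD-1 strain at 10.5 days post coitum, Theiler stage 18, and carried the Hoxb7-EGFP transgene, in which the Hoxb7 promoter drives green fluorescent protein in the nephric duct and its derivatives. Cells were freed from the dissected duct with trypsin and sorted for the fluorescent protein, and RNA was amplified before hybridisation to an Affymetrix mouse array. Embryo sex was unknown, and no unsorted or fluorescence-negative group was analysed here. Whether the ducts belonged to different embryos is not stated, so a p-value reflects the variation among these arrays alone and could be technical.

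Integrins are receptors made of 1 alpha and 1 beta chain that span the membrane and tie the extracellular matrix to the actin cytoskeleton. Talins and kindlins bind the beta tail and switch the receptor to its active form, and the complex of integrin-linked kinase, a Pinch adaptor and a parvin links it to actin. Vinculin, paxillin and focal adhesion kinase join the site as it grows and signals. In the developing kidney, the epithelial duct rests on a laminin-rich basement membrane, and laminin-binding and collagen-binding integrins with the Itgb1 chain are known for roles in branching of the ureteric bud.

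Each value is a log2 signal of 1 probe set. Background was set on each array at the 95th percentile of 1210 probe sets that detect receptors of the nose (olfactory and vomeronasal), genes of sensory neurons. This cutoff was 5.70, 5.73 and 5.71 on arrays 1, 2 and 3, with a mean of 5.71. A gene is called above background when limma's one-sided test over the 3 arrays gave a Benjamini-Hochberg adjusted p under 0.05, corrected over all 21789 probe sets with a single gene symbol. By this rule 11194 of all 19938 genes, or 56.1%, were above background. Probe sets differ in affinity, so signals do not rank the transcript amounts of different genes.

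Of the 38 measured members, 22, or 57.9%, were above background and 16 were not, a share near the 56.1% of all genes. Of the 26 integrin subunit genes alone, 13 were above background, or 50%. Each of the 22 lay above the cutoff on every array. The split differed by class: 7 of 9 epithelial integrins were above background, against 1 of 7 leukocyte integrins and 1 of 2 platelet integrins. The epithelial class held Itgb1, Itga6, Itgav, Itga3, Itga2, Itgb4, Itgb8, Itgb6 and Itgb5. Its name does not mean that each gene is confined to epithelium. With the cutoff raised by 1 log2 unit, 3 of these 9 remained, Itgb1, Itga6 and Itgav, beside 28.3% of all genes. Among the integrins of mesenchyme, muscle or many cell types, 4 of 8 were above, and of the adhesion partners 9 of 12. With a stricter cutoff, the receptors' 99th percentile, 36.1% of all genes were called and 14 members. These were 4 epithelial, 2 mesenchymal or broad, 0 platelet, 0 leukocyte and 8 partner genes. Integrin subunits alone gave 6 of 26 there, a smaller share than that of all genes. The median signal was 6.04 over all genes, 6.41 over the epithelial, 5.85 over the mesenchymal or broad, 5.83 over the platelet and 5.16 over the leukocyte integrins, and 6.84 over the partners. These medians describe the signals and, given the probe sets' unequal affinity, are no comparison of transcript amounts between classes. No test between classes was made, since genes are not replicates of a condition.

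**Figure D1:**
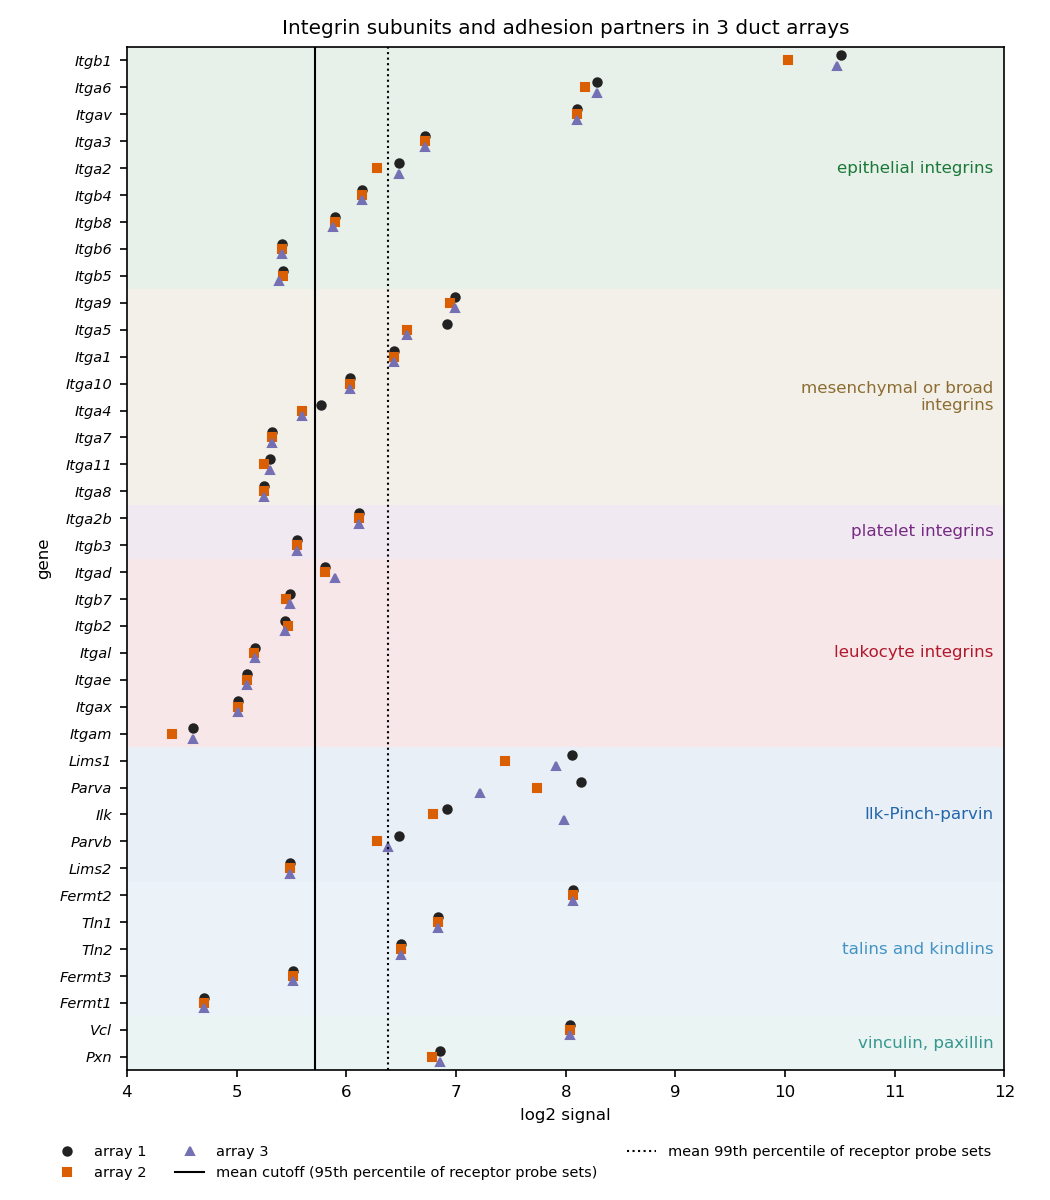
Log2 signal of each of the 38 measured members (rows) on arrays 1, 2 and 3 (symbols, offset vertically), grouped by class. The solid line is the mean background cutoff of 5.71 and the dotted line the receptors' mean 99th percentile, 6.38. Itgb1 lies between 10.03 and 10.51, and 6 of 7 leukocyte integrins lie left of the solid line.

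The chain shared by most matrix receptors was well above background. Itgb1 had signals of 10.51 on array 1, 10.03 on array 2 and 10.48 on array 3. These lay 4.63 log2 units above the cutoff in the mean (SD 0.27, n = 3; limma, adjusted p = 6.9e-05), with array 2 the lowest and no array near the cutoff. Itga6, which pairs with Itgb1 or Itgb4 to bind laminin, had 8.29 on arrays 1 and 3 and 8.18 on array 2, or 2.54 units above the cutoff (limma, adjusted p = 1.67e-05). Itgav, the alpha chain of receptors for RGD-bearing ligands such as fibronectin, read 8.10 on every array. Itga3, a laminin receptor chain of kidney epithelia, read 6.72 on every array, 1.01 units above the cutoff. Itga2, a collagen receptor chain, had 6.48 on arrays 1 and 3 and 6.28 on array 2. Its values on arrays 1 and 3 lay above the mean 99th percentile of 6.38 and that on array 2 below it, and it did not pass at that cutoff.

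Of the 7 beta chains other than Itgb1, Itgb4 and Itgb8 were above background. Itgb4, the chain of the hemidesmosome receptor, read 6.14 on every array, 0.43 units above the cutoff. Itgb8, which with Itgav can activate latent Tgf-beta, had 5.90 on arrays 1 and 2 and 5.88 on array 3, only 0.18 units above the cutoff. Neither passed at the 99th percentile. The Itgb8 call also ended without array 3, in a fit that gave all genes one common spread. Itgb5, at 5.42 on arrays 1 and 2 and 5.39 on array 3, and Itgb6, at 5.41 on every array, are partners of Itgav in vitronectin and latent Tgf-beta binding; both were below the cutoff on each array.

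Leukocyte integrins, which bind cell-surface counter-receptors and complement, were mostly below the cutoff. Itgb2, the common beta chain of the leukocyte receptors, had 5.44 on arrays 1 and 3 and 5.47 on array 2. Itgal, the alpha chain of LFA-1, had 5.17 on arrays 1 and 3 and 5.15 on array 2. Itgam, the alpha chain of Mac-1, had 4.60 on arrays 1 and 3 and 4.41 on array 2, and Itgax, the alpha chain of the dendritic cell marker CD11c, read 5.01 on every array. Every one of these values was below the cutoff of its array. Itgb7 had 5.49 on arrays 1 and 3 and 5.45 on array 2, and Itgae, which pairs with Itgb7 to bind E-cadherin, read 5.09 throughout; both were also below.

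The 1 leukocyte integrin called above background was Itgad, which had 5.81 on arrays 1 and 2 and 5.90 on array 3, or 0.13 units above the cutoff (SD 0.05, n = 3; limma, adjusted p = 0.0219). It was the only member with more than 1 probe set, and its other probe set read 5.39 on every array. The call ended when array 1 or array 3 was left out, when the background came from olfactory receptors only, at the 99th percentile, and with a larger spread for genes tied across arrays. Against 56.1% of all genes, leukocyte marker genes were above background in 2 of 20 cases. These were Lcp1, an actin-bundling protein, at 7.16, 6.87 and 7.80 on arrays 1, 2 and 3, and the fractalkine receptor gene Cx3cr1 at 6.54 on every array. The pan-leukocyte gene Ptprc read 4.16 and the myeloid factor gene Spi1 5.55 on every array, both below the cutoff. Cd53 and Adgre1 averaged 4.10 and 4.09, and Cd68, at 5.71 on array 1 and 6.60 on arrays 2 and 3, was not called. The mean over the leukocyte markers was 5.12, 5.16 and 5.20 on arrays 1, 2 and 3.

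The platelet receptor is a pair of Itga2b and Itgb3. Itga2b read 6.12 on every array, 0.41 units above the cutoff, and Itgb3 read 5.55 on every array, at -0.16 units from the cutoff in the mean. Itga2b did not pass at the 99th percentile. Megakaryocyte and platelet markers were above background in 6 of 9 measured cases, a share not far from the 56.1% over all genes. Only 1 of the 9 passed at the 99th percentile, which 36.1% of all genes passed. The platelet receptor gene Clec1b, at 7.17 on arrays 1 and 3 and 6.70 on array 2, was the 1 that passed at both. Also called were Treml1 and Vwf, at 6.34 and 6.24 on every array, and the blood lineage factor genes Gata1, with a mean of 6.06, and Nfe2, at 5.90 on every array. The sixth was the platelet receptor gene Gp9, at 5.78 and 0.07 units above the cutoff. The 3 not called were the receptor gene Gp5, with a mean of 5.57, and the chemokine genes Pf4 and Ppbp, at 5.31 and 4.23 on every array. The mean over the markers was 5.85, 5.78 and 5.85 on arrays 1, 2 and 3. The part of such cells in the Itga2b signal was not tested.

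**Figure D2:**
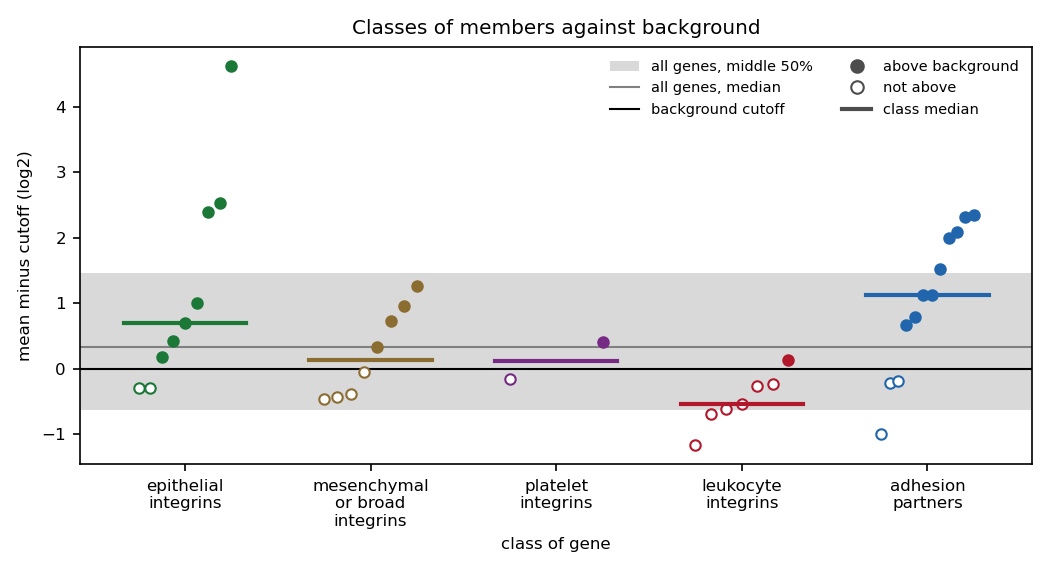
Mean log2 signal minus the background cutoff for each member (points), by class, with class medians (coloured bars) and the median and middle 50% of all genes (grey). Filled points were above background. Among the integrins, 7 of 9 epithelial points are filled against 1 of 7 leukocyte points.

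Integrins known from mesenchyme, muscle or many cell types were mixed. Itga9, a receptor chain for tenascin and other ligands, had 6.99 on arrays 1 and 3 and 6.95 on array 2, or 1.26 units above the cutoff. Itga5, the fibronectin receptor chain, had 6.91 on array 1 and 6.55 on arrays 2 and 3, so that array 1 stood 0.36 units above the others. Itga1, a collagen receptor chain, read 6.44 on every array, and Itga10, known from cartilage, 6.04. Of these 4 genes, Itga9 and Itga5 passed at the 99th percentile.

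The mesenchymal receptor chain Itga8, which on the metanephric mesenchyme binds nephronectin from the bud, read 5.25 on every array, below the cutoff. Its ligand gene Npnt had 7.79 on arrays 1 and 3 and 7.88 on array 2, or 2.11 units above the cutoff. The muscle laminin receptor chain Itga7 read 5.33 throughout, and Itga11, a fibroblast collagen receptor chain, had 5.30 on arrays 1 and 3 and 5.25 on array 2. Itga4, which pairs with Itgb1 or Itgb7, was above the cutoff on array 1, at 5.77, and below it on arrays 2 and 3, at 5.60; it was not called. Against 56.1% of all genes, mesenchyme markers were above background in 2 of 12 cases. These were Twist1 at 5.96 on every array and Gdnf at 5.75, 5.83 and 5.83. The nephron progenitor factor gene Six2 read 5.07. Pdgfra, at 5.78, 6.08 and 5.78, was not called, and the stromal genes Foxd1 at 4.44 and Lum at 3.23 were below the cutoff. At the 99th percentile 0 of the 12 passed, against 36.1% of all genes.

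An integrin at the cell surface needs both chains. Of 24 known alpha-beta pairs, 10 had both transcripts above background. Itgb1 is part of 12 pairs, and in 8 of them, beside a share of 56.1% for any gene, the alpha gene was above background too: Itga1, Itga2, Itga3, Itga5, Itga6, Itga9, Itga10 and Itgav. The others were Itga6 with Itgb4 and Itgav with Itgb8. No pair of Itgb2, Itgb3 or Itgb7 had both, and the known pairs of Itgav with Itgb5 and Itgb6 had Itgav alone. At the 99th percentile 5 pairs had both transcripts, each with Itgb1. That is 5 of the 12 alpha genes that pair with Itgb1, beside a share of 36.1% for any gene. When the cutoff was 1 log2 unit higher, 3 pairs had both, also each with Itgb1, beside 28.3% for any gene. Transcripts of both chains do not show that the protein pair was present.

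**Figure D3:**
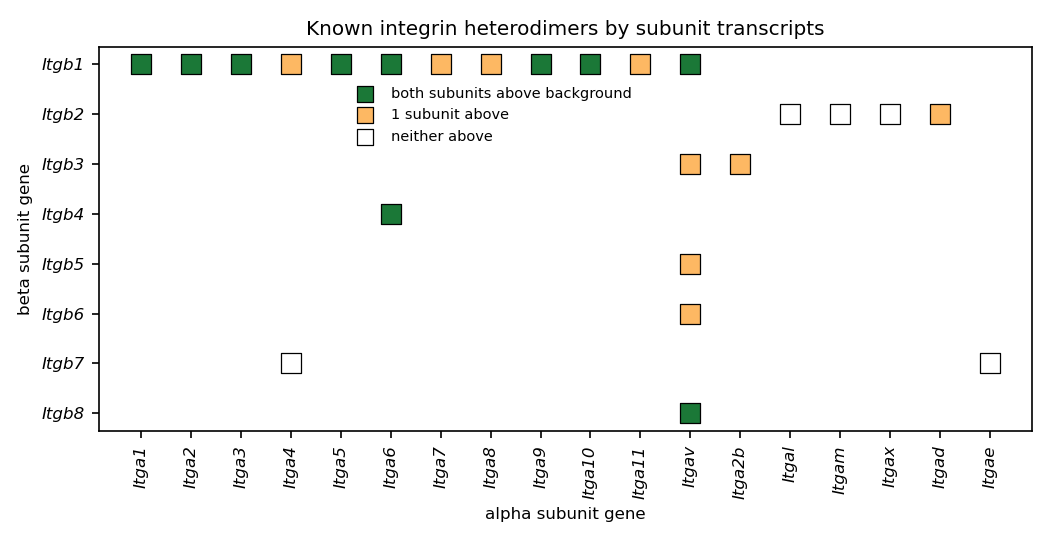
Known integrin pairs, with alpha genes on the horizontal axis and beta genes on the vertical axis. Squares are green where both transcripts were above background (10 of 24 pairs), orange where 1 was and white where neither was; 8 of the green squares are in the Itgb1 row.

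Promoter sequence was compared because it is independent of the array. RefSeq windows of GRCm38.p6 were matched for 26 of the 38 measured members, with 31 start sites, and the 250 bases before each start were read. The windows shown belong to the 2 epithelial integrins with the highest and the 2 leukocyte integrins with the lowest signals among those matched. Each runs 5′ to 3′, with CG dinucleotides in capitals.
Itgb1, chr8:128685404-128685653, plus strand: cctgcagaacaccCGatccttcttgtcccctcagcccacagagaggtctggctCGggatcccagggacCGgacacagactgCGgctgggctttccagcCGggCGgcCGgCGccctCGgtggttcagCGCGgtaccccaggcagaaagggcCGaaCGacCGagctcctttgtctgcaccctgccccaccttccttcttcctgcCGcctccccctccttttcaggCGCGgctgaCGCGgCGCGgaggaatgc
Itgav, chr2:83724147-83724396, plus strand: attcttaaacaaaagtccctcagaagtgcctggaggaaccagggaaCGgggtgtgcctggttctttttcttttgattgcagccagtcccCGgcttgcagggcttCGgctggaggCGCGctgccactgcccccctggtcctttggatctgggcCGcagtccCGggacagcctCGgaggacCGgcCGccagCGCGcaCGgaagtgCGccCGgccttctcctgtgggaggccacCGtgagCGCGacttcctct
Itgam, chr7:128062390-128062639, plus strand: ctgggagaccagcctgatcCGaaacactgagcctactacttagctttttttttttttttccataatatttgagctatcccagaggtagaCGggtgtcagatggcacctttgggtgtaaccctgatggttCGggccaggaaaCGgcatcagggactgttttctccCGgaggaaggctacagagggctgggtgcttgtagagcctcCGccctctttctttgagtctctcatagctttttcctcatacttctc
Itgax, chr7:128129300-128129549, plus strand: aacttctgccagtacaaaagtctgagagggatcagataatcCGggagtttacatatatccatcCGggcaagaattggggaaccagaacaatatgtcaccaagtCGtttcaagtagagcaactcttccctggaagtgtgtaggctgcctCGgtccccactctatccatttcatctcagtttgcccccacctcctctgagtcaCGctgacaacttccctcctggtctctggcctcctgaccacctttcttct

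The Itgb1 window held 21 CG dinucleotides and that of Itgav 18, against 6 for Itgam and 5 for Itgax. The median over all 32851 windows was 6. A window was called CG-rich when its GC content was over 50% and its observed over expected CG ratio over 0.6, which held for 30.8% of all windows. It held for 12 of the members' 31 windows, for 5 of 9 epithelial integrin windows and for 0 of 3 leukocyte integrin windows. Those of the partner genes Vcl and Fermt2 held 24 and 31 CG dinucleotides. The feature did not follow the calls throughout. Itga8 and Itgb5, neither of them above background, had CG-rich windows with 18 CG dinucleotides each, and Itga10 and Itga2b, which were called, held 2 each. For integrins, 3 of 11 windows of genes above background and 3 of 9 of the others were CG-rich.

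Short motifs were counted on both strands of the same 250 bases. The GC box GGGCGG, bound by Sp1, was in 13 of the members' 31 windows, or 41.9%, against 32.7% of all windows. The core GAGGAAG of sites for PU.1, the factor encoded by Spi1, was in 6 of the members' windows, or 19.4%, against 10.6% of all. Those windows belong to Itgav, Itgam, Itga2b, Itga11, Itgb6 and Lims1, so both an epithelial and a leukocyte window printed above hold it. Such matches describe letters and were not tested as binding sites. Neither motif contains the other.

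Adaptors that carry the integrin signal to actin were mostly above background. In the Ilk, Pinch and parvin complex 4 of 5 genes were called, against 56.1% of all genes. At the 99th percentile 3 passed, and raising the cutoff by 1 log2 unit left 2; over all genes these shares were 36.1% and 28.3%. Ilk, the scaffold kinase that gives the complex its name, had 6.92, 6.79 and 7.99 on arrays 1, 2 and 3, so array 3 stood more than 1 unit above the others. The mean was 1.52 units above the cutoff (SD 0.66, n = 3; limma, adjusted p = 0.0133). Its call ended with the cutoff raised by 1 log2 unit (0.52 units above it; limma, adjusted p = 0.29). Lims1, the Pinch adaptor of most tissues, had 8.05, 7.45 and 7.91, with array 2 the lowest. Parva, the parvin of most tissues, had 8.14, 7.74 and 7.22, with array 3 the lowest. Parvb, a parvin best known from muscle, had 6.48, 6.28 and 6.38 and did not pass at the 99th percentile. The second Pinch gene, Lims2, read 5.49 on every array and was below the cutoff. Rsu1, which binds Pinch in the same complex, had 10.01, 8.34 and 9.32.

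The genes of integrin activators were mixed. Fermt2, the kindlin found in most tissues, read 8.07 on every array, 2.36 units above the cutoff. The epithelial kindlin gene Fermt1 read 4.71 and the blood cell kindlin gene Fermt3 5.52 on every array, both below. Both talin genes were called: Tln1, the form of most cells, read 6.84 and Tln2 6.50 on every array. Vinculin, which binds talin under tension, had its gene Vcl at 8.03 on every array. Pxn, the gene of the scaffold paxillin, had 6.85 on arrays 1 and 3 and 6.79 on array 2. Of these 7 genes, Fermt2, Tln1, Vcl and Pxn also passed with the cutoff raised by 1 log2 unit, as did 28.3% of all genes. Tln1 and Pxn lay only 0.13 and 0.12 units above that raised cutoff. The share of all genes above background was 56.1%.

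Ligands and downstream genes were taken from lists of the wider pathway. Basement membrane genes were above background in 17 of 20 measured cases, a share of 85% against 56.1% of all genes. At the 99th percentile 9 of the 20 passed, against 36.1% of all genes. The laminin chain genes Lamb1 at 9.46 on every array and Lamc1 at 9.16 were called. Lama1, at 7.40, 7.40 and 7.07, and Lama5, at 6.76 on every array, supply the alpha chains bound by Itga3 and Itga6. The collagen IV gene Col4a1 read 7.13 and the perlecan gene Hspg2 7.74, 7.41 and 7.74. Lama2 at 5.12 in the mean and Lama3 at 5.35 were not above background. On array 1 Lama3 shared its value with 93 other genes, Col4a6 among them.

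Genes of RGD-bearing and interstitial ligands were called in 12 of 18 cases. That share of 66.7% was near the 56.1% over all genes. At the 99th percentile 9 of the 18 passed, against 36.1% of all genes. Fibronectin, Fn1, had 8.43, 8.04 and 8.26 on arrays 1, 2 and 3, and the Fraser complex gene Frem2 8.37, 8.27 and 8.37. Ccn1, a matricellular ligand gene, had 8.83, 7.62 and 7.89, with array 1 the highest. The tenascin gene Tnc at 4.97 in the mean and Frem1 at 4.85 were below the cutoff. Of 9 ligands on cell surfaces, 6 were called, also 66.7%, and 3 passed at the 99th percentile, where 36.1% of all genes did. These included the junctional adhesion gene F11r at 8.66, 7.94 and 8.66, the E-cadherin gene Cdh1 at 8.32 on every array, and Icam2 at 7.47, 7.30 and 7.32. Vcam1, the ligand of Itga4, read 5.23 and Icam4 5.48 on every array, and neither was called.

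Cytoskeletal genes of adhesion sites were called in 22 of 24 cases, signalling genes in 25 of 28 and regulators of integrin activity and traffic in 16 of 17. Over all genes the share called was 56.1%. The stricter 99th percentile left 17, 21 and 15, and 36.1% of all genes. Examples were Lpp, a zyxin relative, at 9.59, 9.19 and 9.59, and Tes, at 9.40 on array 1 and 9.20 on arrays 2 and 3. The parvin gene Parvg at 5.51 and the paxillin relative gene Lpxn at 5.31, both known from leukocytes, were not called. In the signalling list, Cdc42, Rhoa and the Ras relative Rap1b averaged 11.65, 11.24 and 10.81. Src, the kinase that acts with focal adhesion kinase, read 6.78 on every array. Ptk2b, a kinase related to Ptk2, at 5.27, Elmo1 at 5.46 and Apbb1ip, a talin recruiter of blood cells, at 4.67 were the signalling genes not called. Elmo1 read 4.95 on arrays 1 and 2 and 6.49 on array 3.

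Among regulators, the recycling gene Rab11a read 10.05 on every array and Rab21 and Cd47 averaged 10.07 and 9.79. Cd151, a tetraspanin that binds laminin receptors, had 7.07 on arrays 1 and 3 and 6.99 on array 2, and the tetraspanin gene Cd82 read 6.26 throughout. Itgb1bp2, known from muscle, read 5.48 and was the regulator not called. The hemidesmosome genes Plec at 5.92, Col17a1 at 6.15 and Dst at 6.55 each had the same value on all arrays. They were called in 3 of 3 cases, against 56.1% of all genes. At the 99th percentile 1 of the 3, Dst, passed, against 36.1% of all genes. List medians were 6.49 for basement membrane genes, 6.38 for RGD and interstitial ligands, 5.92 for cell-surface ligands, 7.67 for cytoskeletal, 7.53 for signalling and 7.60 for regulator genes, against 6.04 for all genes.

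**Figure D4:**
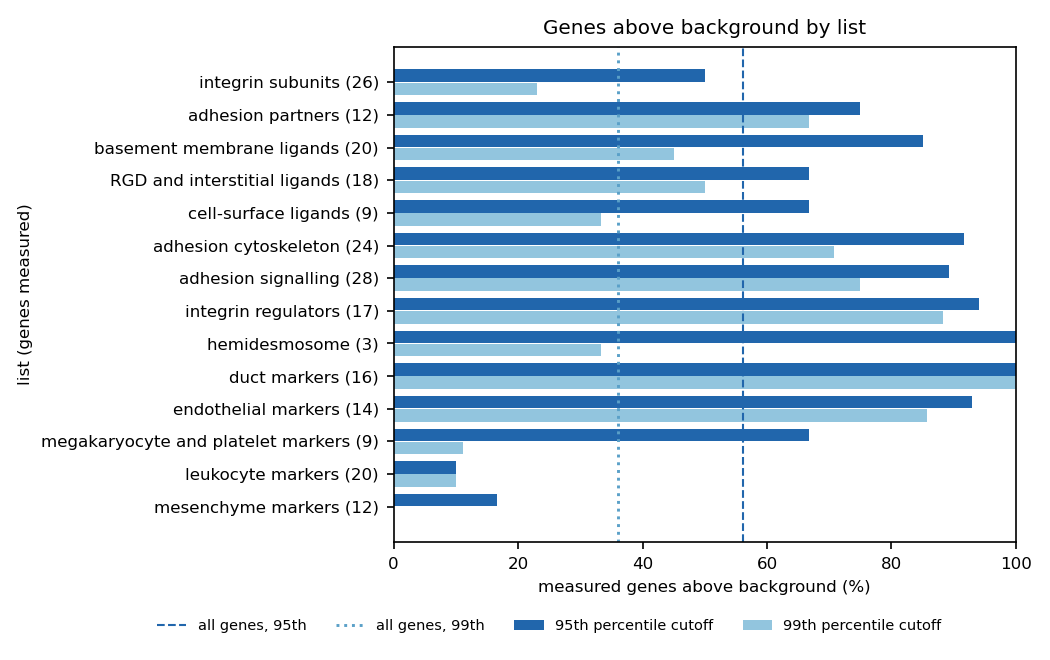
Share of measured genes above background in each list (horizontal axis, %), with the number measured in parentheses, at the 95th and at the 99th percentile cutoff. Dashed and dotted lines mark the shares of all genes, 56.1% and 36.1%. Regulator, cytoskeletal and signalling genes extend past both lines, and integrin subunits, leukocyte markers and mesenchyme markers fall short of both.

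Differences between arrays were small for most members. Among the 38 members, 19 had an identical value on each array, 14 had 2 distinct values and 5 had 3. Over all genes, 50.8% had an identical value on each array, so such ties are not particular to the members. For the 19, no spread can be given, the fitted error comes only from the cutoffs and from moderation, and p-values are too small. A range over 0.5 log2 units was found for Ilk, Parva and Lims1, all of the Pinch and parvin complex, and for 10.2% of all genes. Of 15 members with a single lowest array, 12 were lowest on array 2, 3 on array 3 and 0 on array 1. Over all genes with a single lowest array, 30.8% were lowest on array 2.

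Endothelial and duct markers were also lowest on array 2 more often than on the other arrays. Several integrins are known from endothelium as well as epithelium. The endothelial markers were above background in 13 of 14 cases, against 56.1% of all genes. At the 99th percentile 12 of the 14 passed, against 36.1% of all genes. With the cutoff raised by 1 log2 unit 8 passed, against 28.3%. Of the 14 markers, 13 were lowest on array 2. Of the 16 duct markers, 6 had their single lowest value on array 2, 1 on array 1 and 0 on array 3. Pecam1, for example, had 7.82, 6.91 and 7.76 on arrays 1, 2 and 3, and Emcn 10.40, 9.28 and 10.53. The cadherin gene Cdh5 and the receptor gene Kdr averaged 9.10 and 8.36. Esam averaged 6.05, and Sox17, at 5.80, was the marker not called. Averaged over these markers, the signal was 7.78, 7.13 and 7.81 on arrays 1, 2 and 3. Over the members, the mean was 6.34, 6.26 and 6.32 and over the duct markers 8.39, 8.30 and 8.34. In such bulk samples, fewer cells of a type and less RNA per cell cannot be told apart. The part of endothelial cells in the members' signals was not tested. Without array 2, the same 22 members were called, and Itgb1 lay 4.79 units above the cutoff. The duct markers were called in 16 of 16 cases and 16 also passed at the 99th percentile, against 56.1% and 36.1% of all genes. Among the markers, Calb1, Krt8 and Krt18 had means of 11.71, 10.56 and 9.77, and Epcam read 9.05 on every array. Wnt9b read 6.96, and Ret 7.21 on array 1 and 6.89 on arrays 2 and 3.

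**Figure D5:**
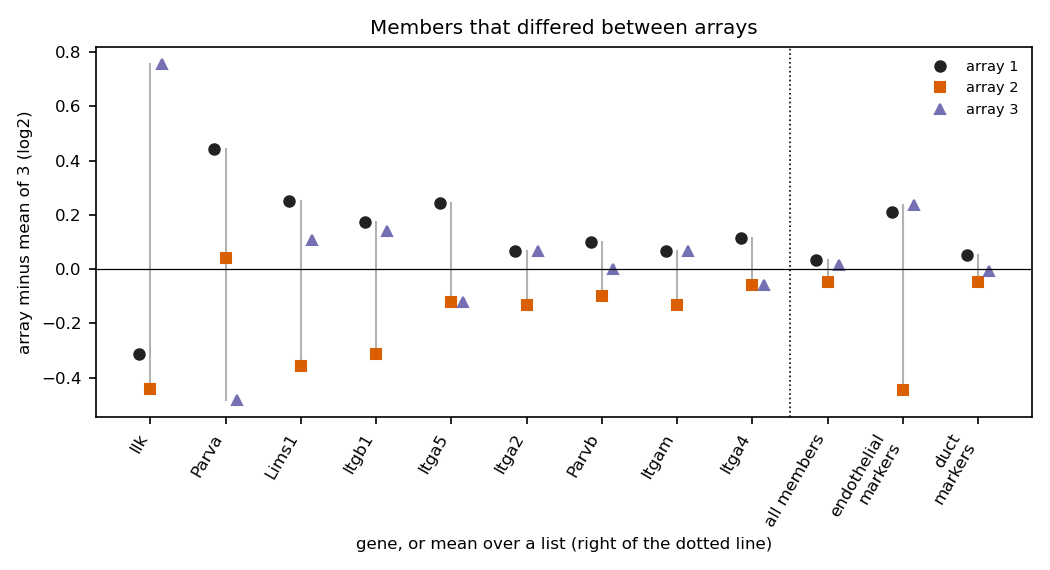
Signal on each array minus the mean of the 3 arrays (log2), for the 9 members with a range of at least 0.15 and, right of the dotted line, for the means over all members, endothelial markers and duct markers. Array 2 (squares) is lowest for Ilk, Lims1, Itgb1, Itga2, Parvb and Itgam and for each mean right of the dotted line. Array 3 (triangles) is highest for Ilk and lowest for Parva.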

How the data were processed

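Signals came from 3 Affymetrix arrays of 1 group. The deposited table holds the authors' summarised values, read as log2 from their range of 1.90 to 14.16. The submitters' processing notes name Affymetrix Expression Console; version, algorithm and normalization are not given in the sources used. The platform annotation gave 1 symbol to 21789 probe sets, several to 1621 and none to 12147. A gene took its single-symbol probe set with the highest mean. An intercept model in limma 3.58.1, run in R 4.3.3, was fitted to values minus each array's cutoff and moderated by empirical Bayes (1.13 prior degrees of freedom, prior SD 0.035). The test was checked on simulated data with a common spread (SD 0.1156) for every probe set. That check did not cover values tied on all 3 arrays, which 50.8% of genes had. Precision is limited by the number of arrays. The rule for naming took all members, the 3 highest and 2 lowest genes of each other list, and genes picked by role. Genes outside it, such as Elmo1, were chosen after their values were seen. The members and lists were chosen with earlier results of these data known, and the alpha-beta pairs, promoter measures and motifs after the values were seen. Alternatives covered the cutoff, background genes, probe set choice, tied spread, normalization, a filter on dim probe sets, the classes and each array left out. No slide or scan information was used here.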

Additional observations from a re-analysis of the deposited data

How the results depend on the processing

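No paired analysis was possible because there is only 1 group. The cutoff set the counts most. At the 99th percentile, members above background were 14, with 4 epithelial, 0 leukocyte, 0 platelet and 2 mesenchymal or broad integrins, and 7193 of all genes. With the cutoff raised by 1 log2 unit these were 10, 3, 0, 0, 1 and 5647. At the 90th percentile, 3 leukocyte and 2 platelet integrins were called, beside 13052 of all 19938 genes. Where the cutoff was instead the 30th percentile over the whole array, 35 members were called, beside 15005 of all 19938 genes. Among the 35 were 5 leukocyte, 2 platelet and 8 mesenchymal or broad integrins. The other counts stayed within 1.5 times. The leukocyte count was 0 with olfactory receptors only, with the lowest probe set of each gene, with the mean of its probe sets, and with tied spreads set to the median of untied ones. It was 2 where shared probe sets were allowed, since Itgam then took probe sets naming it with the ribosomal gene Rpl35. With Itga1 and Itga9 counted as epithelial and Itga4 as leukocyte, 2 mesenchymal or broad integrins remained called.

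Some called members fell below a higher cutoff. Their means minus the 99th percentile were -0.34 for Itga10, -0.26 for Itga2b, -0.54 for Itgad, -0.24 for Itgb4 and -0.49 for Itgb8. Itga1, Itga2 and Parvb lost their calls there while 0.057, 0.033 and 0.0019 units above it. Minus the cutoff raised by 1 log2 unit they were -0.27 for Itga1, -0.68 for Itga10, -0.30 for Itga2, -0.59 for Itga2b, -0.039 for Itga5, -0.87 for Itgad, -0.57 for Itgb4, -0.82 for Itgb8, -0.33 for Parvb and -0.21 for Tln2. At that cutoff Ilk and Itga3 also lost their calls, at 0.52 and 0.007 units above it (limma, adjusted p = 0.29 and 1). Itgad gave -0.32 with its lowest probe set and -0.10 with the mean of both. Leaving out each array gave 20 to 22 members and 0 to 1 leukocyte integrins; the fit without array 3 gave all genes one spread. Centring the arrays changes nothing by construction, since the cutoff moves with them. Re-normalizing them by quantiles and leaving out dim probe sets changed no member's call among those still tested. Signal over background limits the calls: 9 members lay within 0.3 log2 units of the cutoff, 2 called and 7 not.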

Other observations

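Against 56.1% of all genes, red cell genes, a further check on the sort, were above background in 2 of 8 measured cases. These were Epor, with a mean of 6.02, and Slc4a1, at 5.89. Embryonic globin signals were uneven: on arrays 1, 2 and 3, Hbb-y had 10.02, 5.31 and 5.45, and Hba-x had 8.89, 5.97 and 5.84. Hbb-bh1 averaged 5.05 and Rhag 3.97. Among the members, 6 had their single highest value on array 1, 1 on array 2 and 2 on array 3. Over all genes, array 1 held the fewest single highest values of the 3 arrays. A link between the members' values and the globin signals was not tested. Of the 6 members highest on array 1, Itga5 and Itga4 were tied on arrays 2 and 3. Itgb1, Lims1, Parva and Parvb differed on every array.

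Identical values also recur between genes. On array 1, 22 of the 38 members held exactly the value of at least 1 other gene, as did 56.7% of all genes. Itgax shared its value with 101 other genes, Itgb3 with 77, among them the leukocyte gene Spi1, and Itga10 with 65. Itgb1, Itgav, Itga2b, Itga9, Fermt2, Ilk and Parva shared theirs with none. Of the 14 members with 2 distinct values, 9 were tied on arrays 1 and 3, 3 on arrays 1 and 2, and 2 on arrays 2 and 3.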
